A study of Homo sapiens with 18 samples.

Results

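The 6 libraries whose sample label names the multiple myeloma cell line LP1 are described here, 6 of the 18 libraries of a study that lowered the long non-coding RNA NEAT1 in cultured myeloma cells. They were chosen by the cell line in the label, and they fall into 3 libraries labelled SCR and 3 labelled gN1E. In the study, cells were kept for 48 h in medium that held 5 µM of a gapmeR, either g#N1_E, which is directed at NEAT1, or the scrambled control g#SCR, and took it up without a transfection agent (gymnosis). GapmeRs are antisense strands with locked ends and a DNA core, and RNase H cleaves the RNA bound to that core. The question of the comparison is which RNAs differ when NEAT1 is lower. Each group is 1 cell line under 1 oligonucleotide, and nothing in the labels says that the replicates are separate cultures, so the p-values measure the spread between these samples. Stranded total RNA was sequenced, and the deposited counts summed to 69937229, 64358551 and 56542997 in SCR A, B and D and to 57247024, 45406587 and 44091209 in gN1E A, B and D. Inside the deposited tables the names exchange SCR with gN1E and give H929 in place of LP1, and NEAT1 was high in the libraries labelled gN1E. Libraries are therefore called by their labels, every difference is SCR label minus gN1E label on the log2 scale, and a positive value means higher where NEAT1 was lower.

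NEAT1 is the RNA scaffold of paraspeckles, nuclear bodies that hold RNA-binding proteins and some RNAs in the nucleus. Interferon-stimulated genes are switched on by transcription factors that include the IRF family, and many of their products hinder viral replication. In plasma cells, which make antibody in bulk, IRF4 of that family sets cell identity. Multiple myeloma is a cancer of plasma cells.

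The label was checked against markers as RPKM, reads per kilobase of exon scaled to sequencing depth. Of 10 plasma cell markers, 9 had a mean of at least 1 RPKM, with XBP1, the transcription factor of secretory cells, the most abundant, and CD27 was the marker near 0. Of the 9 plasma cell markers tested, 8 had a negative log2 difference, with a median of -0.05. In edgeR 0 were called, with 0 higher and 2 lower at an unadjusted p under 0.05, while limma-voom, DESeq2 and edgeR scaled by library size only each called 1 fall, IRF4. Its level was 1776, 1776 and 1772 CPM in the SCR libraries against 1978, 1946 and 1994 CPM, lower in each of them, a log2 difference of -0.15 with an adjusted p of 0.0990 in edgeR with Benjamini-Hochberg adjustment. The 8 mature B cell markers held 1 at that level, CD79B, and MS4A1 had no read. FGFR3 (127 to 149 RPKM) and NSD2 (76.0 to 83.8 RPKM), the genes that a translocation of chromosomes 4 and 14 raises in myeloma, were high in all 6 libraries. As background, LP1 is known as a line with lambda light chains and NCI-H929 as one with IgA heavy and kappa light chains. The kappa constant gene IGKC lay between 12480 and 14080 RPKM and the lambda constant gene IGLC2 between 11.5 and 15.8 RPKM, which goes against the LP1 label. IGHA1, the IgA heavy chain gene, lay between 5.13 and 6.71 RPKM, which goes against the name H929 inside the tables. In the SCR libraries labelled H929 its mean was 5663 RPKM, and that of FGFR3 was 0.273 RPKM. In those labelled AMO1 IGHA1 was alike, at 5634 RPKM, and FGFR3 was 0.0277 RPKM. IGHG1, an IgG heavy chain gene, differed, with 240 RPKM under the H929 label and 0.564 RPKM under the AMO1 label. The libraries keep the name of their label here, and which line was sequenced cannot be told from the labels.

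Markers of other cells were low, and some were higher in the libraries labelled SCR. The summed level of the 13 erythroid, stromal and epithelial markers was 47.0, 52.7 and 32.4 RPKM in SCR A, B and D and 28.1, 17.4 and 23.3 RPKM in gN1E A, B and D. HBA2, an alpha globin gene, was the most abundant of them, and COL1A2, COL3A1, DCN and LUM had no read in any of the 6 libraries. The 8 T and NK cell markers, CD3E the most abundant, summed to 7.85, 8.74 and 7.89 RPKM in the SCR libraries and 5.06, 6.88 and 7.14 RPKM in the gN1E libraries. The 8 myeloid markers, S100A9 the most abundant and FCGR3A without a read, summed to 3.29, 3.67 and 2.80 RPKM against 1.77, 2.83 and 2.08 RPKM. The erythroid and the T and NK sums were thus higher in every SCR library, as the rises below are, and the myeloid sums overlapped by little. Median log2 differences were 0.39 over the 4 T and NK markers tested, 0.29 over 4 myeloid and 0.165 over 5 erythroid, stromal and epithelial markers. With 1 library left out they ran from 0.159 (gN1E A) to 0.577 (SCR D) for T and NK and from 0.157 (gN1E D) to 0.585 (gN1E B) for myeloid markers. HBA2 (1.46) and CSF1R (0.84), a receptor of macrophages, lay higher in every SCR library, as did TRAC, NKG7 and KRT18. Of the markers tested in these 3 lists, 0 lay lower in every SCR library. In edgeR, as fitted here, and in DESeq2, 0 of these markers were called. Other edgeR fits called some: 1 myeloid marker rose with no filter on low counts, in the joint fit and without gN1E D, where CSF1R had an adjusted p of 0.00467 (edgeR with Benjamini-Hochberg adjustment), and 1 T and NK marker rose with no filter. In limma-voom 1 myeloid and 1 erythroid, stromal or epithelial marker rose, and at an unadjusted p under 0.05 edgeR gave 2 T and NK, 1 myeloid and 2 erythroid, stromal or epithelial markers higher and 1 of the last lower. The part of these RNAs in the results below was not tested. In bulk RNA, fewer cells of a type and less RNA per cell cannot be told apart.

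SCR D stood apart from the other libraries before any comparison. Transcripts of the mitochondrial genome took 3.48% of its counts, against 1.6% to 2.35% in the other 5 libraries. Its spread from SCR A over genes, as chi-square per degree of freedom, was 56.3, against 9.34 between SCR A and SCR B and 10.5 to 19.9 among the gN1E libraries. Results are therefore also given without it.

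NEAT1 (ENSG00000245532, chromosome 11 of hg38, 65422774 to 65445540) had a level of 122, 157 and 174 CPM in SCR A, B and D and of 605, 613 and 771 CPM in gN1E A, B and D, where CPM is the count scaled to depth with the TMM factor of edgeR. The groups lay far apart, and the lowest gN1E library was above the highest SCR library. The means were 151 ± 26.5 CPM and 663 ± 93.7 CPM (SD, n = 3 each). The log2 difference was -2.14 (SE 0.19), with an adjusted p of 0.0269 by edgeR (quasi-likelihood F test, Benjamini-Hochberg) over the 23165 genes tested. A two-sided exact permutation test gave p = 0.1, the smallest that 3 against 3 libraries allow. In edgeR with Benjamini-Hochberg adjustment, the adjusted p of NEAT1 rose to 0.176 when SCR B was left out, and to 0.111, 0.0886 and 0.0578 when gN1E A, B or D was, while the log2 difference stayed between -2.25 and -2.003. MALAT1, the neighbouring nuclear RNA gene, had 4913, 5038 and 5854 CPM against 4589, 4554 and 4367 CPM. It lay higher in every SCR library, and its log2 difference of 0.23 (SE 0.06) had an adjusted p of 0.0553 in edgeR with Benjamini-Hochberg adjustment. MALAT1 was called in DESeq2, in limma-voom, with no filter on low counts and without SCR A, and not in the other alternatives.

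Where NEAT1 was lower, 180 genes rose (0.777% of the 23165 genes tested) and 152 fell (0.656%), 332 in all (1.43%), at an adjusted p under 0.05 in edgeR with Benjamini-Hochberg adjustment. Changes were small: the median log2 difference was 0.33 over the rises and -0.34 over the falls, and 36 rises and 29 falls reached 1.5-fold. With an unadjusted p under 0.05, edgeR gave 1550 genes higher (6.69%) and 1468 lower (6.34%), together 13% of those tested, the share beside which such counts of the lists below stand. In all 332 the 3 libraries of one label lay above the 3 of the other. Scaled by library size only, 130 genes rose and 229 fell, while RLE size factors in place of TMM gave 181 and 149. The balance of rises and falls thus depends on whether such a factor is applied. The count and the balance also rest on single libraries. Without SCR D it was 491 rises and 289 falls. Without SCR B it was 34 and 53, without SCR A 69 and 54, without gN1E A 62 and 81, without gN1E B 81 and 95, and without gN1E D 131 and 71. The call was kept in all 6 of these fits by 25 of the 180 rises and 38 of the 152 falls.

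**Figure D1:**
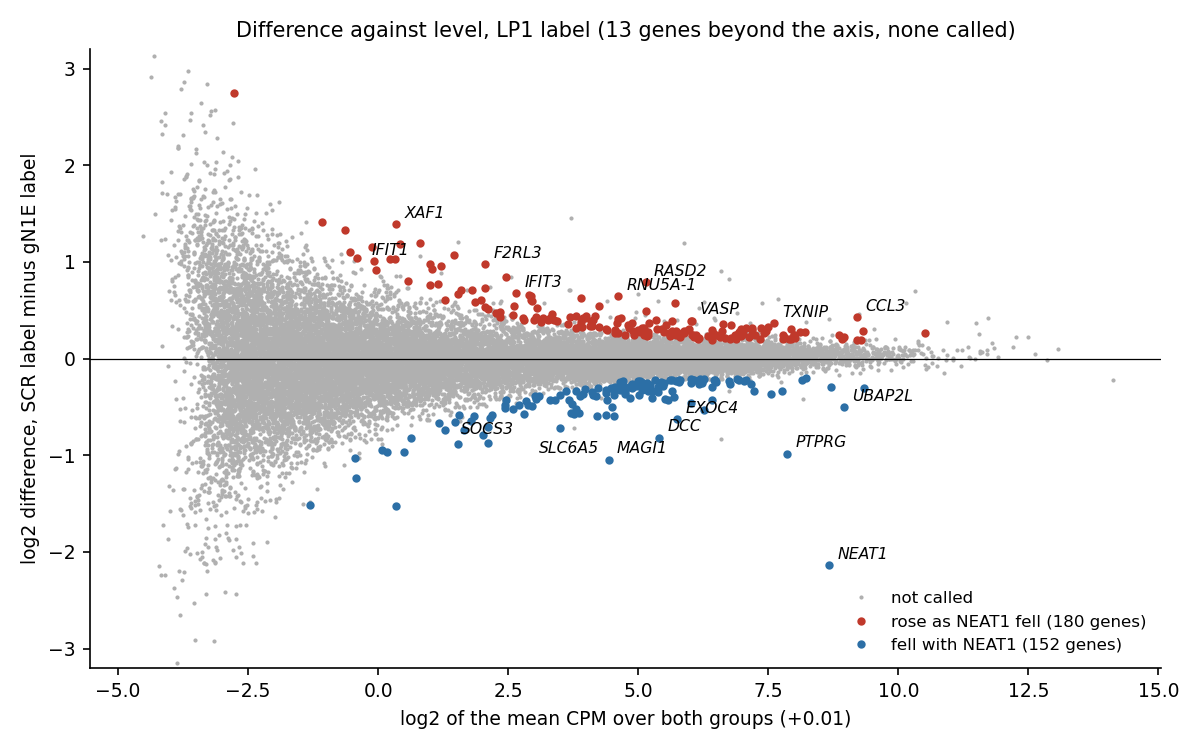
Each point is 1 of the 23165 genes tested, at its mean level over both labels (log2 CPM) and its log2 difference, SCR label minus gN1E label; red points are the 180 rises, blue points the 152 falls, and 13 genes beyond the axis are not drawn. NEAT1 lies at -2.14, apart from the other falls, and the rises lie mostly under 1.

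Interferon-stimulated genes held the most rises of any list examined. Of the 55 tested, 11 rose and 0 fell, and 26 had all 3 SCR libraries above all 3 gN1E libraries, as 2069 genes (8.93%) of all those tested had. The median log2 difference of the list was 0.20, against 0.00122 over all genes tested, and 49 of the 55 values were positive. At an unadjusted p under 0.05, edgeR gave 25 of the 55 higher and 0 lower, against 6.69% and 6.34% of all genes, while 9 rose in limma-voom and 12 in DESeq2 and 0 fell in either. Over all settings and left-out libraries the median stayed between 0.175 and 0.226. The count of 0 falls holds for this list only, whose members were chosen with earlier results of these data known. Outside it, SOCS3, TRAF3 and NLRC5 fell, as given below. RNF213 fell too (-0.317 in the joint fit of the 18 libraries) and kept its call with each library left out.

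XAF1, a binding partner of the apoptosis inhibitor XIAP, had 1.97, 2.38 and 1.13 CPM in SCR A, B and D and 0.770, 0.827 and 0.488 CPM in gN1E A, B and D. Every SCR library was above every gN1E library, with SCR D the closest to the other label, and the log2 difference was 1.39 (SE 0.27). IFIT1, which binds viral RNA that lacks the host's cap marks, had 2.96, 2.74 and 2.21 CPM against 1.39, 1.54 and 1.09 CPM. Its groups did not overlap either, and its log2 difference was 0.98 (SE 0.18). IFIT3, the partner that steadies IFIT1, had 8.84, 7.46 and 6.97 CPM against 5.46, 4.40 and 4.66 CPM. It rose by 0.68 (SE 0.11) with an adjusted p of 0.00323 in edgeR with Benjamini-Hochberg adjustment, and the groups lay clear of each other. MX1, a GTPase that traps viral nucleocapsids, had 74.4, 79.6 and 66.8 CPM against 53.4, 60.0 and 55.9 CPM, again without overlap, a log2 difference of 0.38 (SE 0.06).

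The rest of the 11 were IFI6 (0.73) and IFI27 (0.61), small membrane proteins of mitochondria and the endoplasmic reticulum, OASL (0.52), OAS1 (0.38) and OAS2 (0.30) of the oligoadenylate synthetase family, PARP14 (0.43), which attaches ADP-ribose to proteins, and APOL6 (0.24), a member of the apolipoprotein L family. OAS enzymes make the signal that switches on RNase L, although OASL lacks that activity. MX1, OASL, OAS1, OAS2, PARP14 and APOL6 are named because all called members are given, a choice made after their values were seen. Without SCR D all 11 kept the call and the list held 14 rises. Without the other libraries fewer of the 11 kept it: 3 without SCR B, 4 without SCR A, 5 without gN1E D, 6 without gN1E A and 8 without gN1E B. IFIT3 and MX1 kept it in each of the 6 fits. MX1 was not called in the joint fit of the 18 libraries, where its log2 difference was 0.41.

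**Figure D2:**
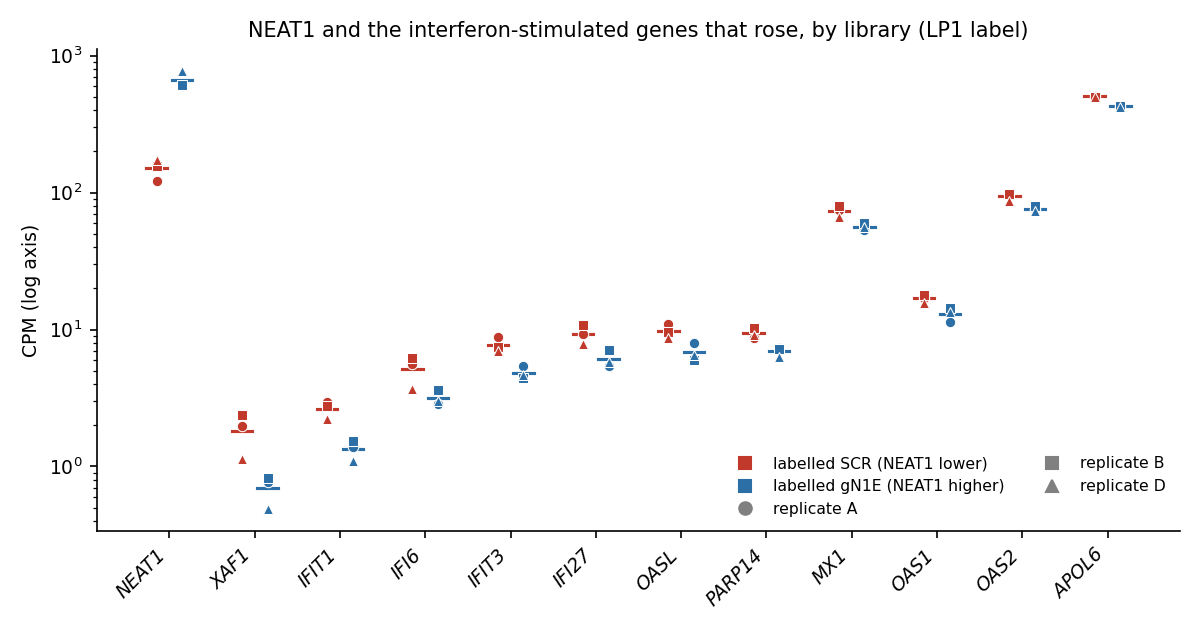
Levels in CPM (log axis) of NEAT1 and of the 11 interferon-stimulated genes that rose, in each library; red marks are libraries labelled SCR, blue marks those labelled gN1E, the shape gives the replicate and the bar the mean of 3. NEAT1 is lower in the SCR libraries, and each of the 11 genes is higher there without overlap.

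To show what the promoters of these genes hold in common, their windows of 250 bases before to 50 bases after the gene start were taken from RefSeq on GRCh38.p14. The windows were searched on both strands for GAAANNGAAA, a core form of the interferon-stimulated response element, which IRF proteins bind. Repeats with another gap were not counted. Of the 11 genes, 8 had an entry and 6 of these held the motif (75%). OASL, OAS2 and APOL6 had no entry. Over all 27305 genes with a window, 1195 held it (4.38%), and 1255 of all 35116 windows did (3.57%). Among the list's members that were not called, 29 of 39 held it (74.4%), so the share was alike in the members that rose and in those not called. Among the genes that rose it was 10 of the 114 with a window (8.77%), 6 of them the genes just counted, and outside the list 4 of 106 (3.77%), close to the 4.04% of genes tested. Among those that fell it was 3 of 110 (2.73%). A match describes these letters and is no proof of a bound site. The windows below are of IFI6 (chr1:27672143-27672442, minus strand), which held the most matches, of IFIT1 (chr10:89392373-89392672, plus strand) and IFIT3 (chr10:89327747-89328046, plus strand), a pair of neighbours that rose, and of XAF1 (chr17:6755796-6756095, plus strand), the largest rise among the 11, which held none. Capitals mark the matches on either strand. The XAF1 window does hold gaaacgaaa, the same repeats with a shorter gap, as that of OAS1 does, and the search did not count it.
IFI6: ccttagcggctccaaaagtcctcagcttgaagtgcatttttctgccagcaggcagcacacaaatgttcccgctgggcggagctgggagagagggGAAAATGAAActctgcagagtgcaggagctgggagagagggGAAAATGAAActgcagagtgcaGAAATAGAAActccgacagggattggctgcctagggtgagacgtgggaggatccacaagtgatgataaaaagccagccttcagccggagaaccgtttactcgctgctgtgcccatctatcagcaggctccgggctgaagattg
IFIT1: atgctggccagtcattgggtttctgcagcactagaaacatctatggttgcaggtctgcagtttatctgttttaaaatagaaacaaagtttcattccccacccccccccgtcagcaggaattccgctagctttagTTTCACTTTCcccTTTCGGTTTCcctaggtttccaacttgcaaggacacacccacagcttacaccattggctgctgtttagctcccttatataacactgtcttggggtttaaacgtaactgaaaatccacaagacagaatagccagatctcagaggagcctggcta
IFIT3: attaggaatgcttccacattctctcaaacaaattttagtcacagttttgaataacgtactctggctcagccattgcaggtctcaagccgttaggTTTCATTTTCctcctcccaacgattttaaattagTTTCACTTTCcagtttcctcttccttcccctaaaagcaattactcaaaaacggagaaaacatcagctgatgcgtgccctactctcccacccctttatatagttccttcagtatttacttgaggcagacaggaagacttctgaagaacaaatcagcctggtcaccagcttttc
XAF1: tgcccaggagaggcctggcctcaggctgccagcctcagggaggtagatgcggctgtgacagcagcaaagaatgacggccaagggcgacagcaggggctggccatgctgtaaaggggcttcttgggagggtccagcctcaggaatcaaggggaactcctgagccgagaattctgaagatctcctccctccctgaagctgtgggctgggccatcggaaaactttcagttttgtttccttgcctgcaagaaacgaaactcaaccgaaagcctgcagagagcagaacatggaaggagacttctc

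Upstream of these genes, the interferon receptors and signalling proteins differed little. Of 25 tested, IRF7 rose and SOCS3 fell. IRF7, the factor that amplifies the interferon response, had 18.4, 20.6 and 15.1 CPM against 13.8, 13.6 and 13.1 CPM. All 3 SCR libraries were higher, and the log2 difference was 0.42 (SE 0.09). SOCS3, an inhibitor of JAK and STAT signalling that STAT3 induces, had 5.91, 5.69 and 5.20 CPM against 8.38, 8.47 and 8.12 CPM, lower in every SCR library. It fell by 0.57 (SE 0.10) with an adjusted p of 0.00323 in edgeR with Benjamini-Hochberg adjustment. IRF7 kept its call without SCR D alone among the left-out libraries, with an adjusted p of up to 0.188 (without SCR B) in edgeR with Benjamini-Hochberg adjustment, and SOCS3 kept its call in all 6 fits. In the joint fit of the 18 libraries 0 genes of the list were called, and in limma-voom 0 rose and 1 fell. The median of the 25 was 0.03.

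Sensors of foreign nucleic acid and antigen presentation held 1 call each, both falls. Of 19 sensors and adaptors, TRAF3, an adaptor of antiviral signalling and a brake on the noncanonical NF-kB pathway, fell by 0.25 (SE 0.06) and is also the 1 call among 18 NF-kB genes. Among 21 genes of MHC class I, NLRC5, the transactivator of those genes, fell by 0.25 (SE 0.06). Neither call was kept with any library left out, with adjusted p of up to 0.129 for TRAF3 (without SCR A) and up to 0.189 for NLRC5 (without SCR B) in edgeR with Benjamini-Hochberg adjustment. Of the 21 class I genes, 15 values were positive, and edgeR gave 4 higher and 1 lower at an unadjusted p under 0.05. All 3 SCR libraries lay above all 3 gN1E libraries for 7 of the 21, against 8.93% of all genes, and below them for 1. The 15 genes of MHC class II gave 0 calls in edgeR, limma-voom and DESeq2 and 0 at an unadjusted p under 0.05. Of these 15, 12 values were positive, with a median of 0.164. With 1 library left out that median ran from 0.0966 (SCR B) to 0.306 (gN1E B). CANX, an endoplasmic reticulum chaperone that folds class I chains, had a log2 difference of 0.09 and was not called.

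F2RL3, the thrombin receptor PAR4, was among the clearest rises. Its level was 5.94, 5.83 and 4.70 CPM in SCR A, B and D and 2.55, 2.62 and 3.26 CPM in gN1E A, B and D. Each SCR library lay above each gN1E library, and the means were 5.49 ± 0.69 and 2.81 ± 0.39 CPM (SD, n = 3 each). The log2 difference was 0.97 (SE 0.13), with an adjusted p of 0.000395 in edgeR with Benjamini-Hochberg adjustment, and the call held with each library left out. It belongs to a list of 21 protease-activated receptors, G proteins and their regulators, of which 3 rose and 1 fell, with a median of 0.11.

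RASD2, a small GTPase that acts on G protein signalling, had 44.2, 47.8 and 42.1 CPM against 21.3, 25.6 and 31.0 CPM. The groups were separate, with gN1E D the nearest to the SCR libraries, and the log2 difference was 0.79 (SE 0.13). RGS19, a regulator that ends the signal of inhibitory G proteins, rose by 0.30 (SE 0.06), while RGS16, of the same family, had 78.8, 79.7 and 72.8 CPM against 90.1, 101 and 92.6 CPM. RGS16 was thus lower in every SCR library, and it fell by 0.29 (SE 0.05). Of these 4 calls, 3 held without SCR A, SCR D, gN1E A or gN1E D in turn and 2 without SCR B or gN1E B. The highest adjusted p was 0.189, for RASD2 without SCR A, in edgeR with Benjamini-Hochberg adjustment.

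Secreted signals followed. CCL3, a chemokine that myeloma cells release and that activates osteoclasts, had 724, 710 and 598 CPM against 452, 532 and 528 CPM. All SCR libraries were higher, and the log2 difference was 0.43 (SE 0.08); copies of this gene (CCL3L) share most of its sequence, so its reads cannot all be placed with certainty. TGFB1, which restrains immune cells, had 278, 287 and 248 CPM against 201, 223 and 236 CPM, a rise of 0.30 (SE 0.06) with the closest values in SCR D and gN1E D. These were the 2 calls among 14 cytokines and chemokines, whose median was 0.265, and 0.115 without SCR B. With a replicate block 0 genes of the list were called. Both held without SCR D, 1 held without each of the gN1E libraries in turn, and 0 held without SCR A or SCR B. The highest adjusted p was 0.127, for CCL3 without gN1E D, in edgeR with Benjamini-Hochberg adjustment. At an unadjusted p under 0.05, edgeR gave 4 higher and 2 lower.

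Genes that growth signals induce within minutes rose at 4 of 25, with a median of 0.10 (0.171 without SCR A). They were IER3 (log2 difference 0.47, SE 0.11), a modulator of survival, SPRED1 (0.31, SE 0.05) and DUSP6 (0.26, SE 0.05), brakes of the RAS and ERK pathway, and KLF6 (0.24, SE 0.05), a zinc finger transcription factor. SPRED1 had 47.9, 48.7 and 49.1 CPM against 40.1, 37.3 and 40.3 CPM. Its 3 SCR values lay close together and well above the others, and it alone of the 4 kept the call with each library left out. All 4 held without SCR D, 3 without gN1E D, 2 without SCR A or gN1E A, and 1 without SCR B or gN1E B (adjusted p up to 0.171, for IER3 without SCR B, edgeR with Benjamini-Hochberg adjustment). In edgeR FOS, JUN and EGR1 were not called, while limma-voom gave 5 rises in the list and DESeq2 5 rises and 1 fall.

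Among the 10 rises with the smallest p-values, log2 differences ran from 0.35 for BTN2A2 to 1.07 for BTF3P3. PIK3CG, the catalytic subunit of PI3K gamma that G proteins switch on, had 57.8, 57.5 and 55.6 CPM against 41.5, 44.4 and 45 CPM. The SCR libraries stood clear of the gN1E libraries, and the log2 difference was 0.39 (SE 0.05). TXNIP, which binds thioredoxin and slows glucose uptake, had 232, 214 and 210 CPM against 178, 165 and 167 CPM. It too was higher in all 3 SCR libraries, by 0.36 (SE 0.05). CD28, a costimulatory receptor of T cells that myeloma cells also carry, had 110, 117 and 107 CPM against 81.4, 88.3 and 90.2 CPM. Its groups did not meet, and it rose by 0.36 (SE 0.05).

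BTN2A2, a butyrophilin that dampens T cells, had 123, 127 and 118 CPM against 96.6, 94.4 and 98.2 CPM, and its gN1E libraries lay within 4 CPM of each other. VASP, which helps actin filaments grow, had 75.8, 79.2 and 67.8 CPM against 55.9, 57.7 and 56.2 CPM. The log2 differences were 0.35 (SE 0.05) for BTN2A2 and 0.39 (SE 0.06) for VASP, and neither gene's groups overlapped. With F2RL3, BTF3P3 and 3 small RNAs these are the 10 rises with the smallest p, and all 10 kept the call with each library left out (adjusted p up to 0.0125, for RNY1 without gN1E B, in edgeR with Benjamini-Hochberg adjustment). BTF3P3 was not called in the joint fit of the 18 libraries, where its log2 difference was 1.09.

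Some small structured RNAs were among the rises, while the class as a whole lay lower. Of 721 genes of snRNA, snoRNA, scaRNA and other small RNA, 9 rose and 0 fell in edgeR, 5% of all rises against 3.11% of the genes tested. The median log2 difference of the 721 was -0.11, the lowest of the biotypes. RNVU1-31, a variant gene of the U1 snRNA that defines the start of introns, had 18, 19.7 and 16.8 CPM against 12.6, 11.6 and 11.1 CPM, without overlap. RNY1, a Y RNA that the Ro60 protein binds, had 20.4, 24.5 and 22.8 CPM against 16.9, 14.5 and 15.1 CPM, and SNORD13, a small nucleolar RNA that takes part in acetylating ribosomal RNA, had 38.4, 40.3 and 45.6 CPM against 27.1, 30.7 and 30.9 CPM. In each of these the SCR libraries were the higher ones, and the log2 differences were 0.63 (SE 0.08), 0.54 (SE 0.08) and 0.49 (SE 0.07).

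In the fixed list of 19 small nuclear and related RNAs, 3 rose, with a median of 0.22. They were RNU5A-1 (0.64, SE 0.11) and RNU5B-1 (0.45, SE 0.11), which encode the U5 RNA that aligns exons, and RNU4-2 (0.57, SE 0.11), which encodes the U4 RNA that chaperones U6. RNU5A-1 had 29.4, 31.5 and 28.8 CPM against 23.0, 17.8 and 16.4 CPM, higher in all SCR libraries. All small RNA together took 1.81% to 1.97% of the counts in SCR and 1.86% to 2.54% in gN1E libraries, with overlap, and RN7SL1, its most abundant gene, was not called. Scaled by library size only, or with a replicate block, 1 gene of the list rose, and 0 did in the joint fit. DESeq2 and edgeR with no filter on low counts each gave 5 rises. The median was 0.101 without gN1E A, 0.116 without SCR D and 0.367 without SCR A, where 4 genes of the list rose. Without SCR B 0 of the 3 calls held, without SCR D or gN1E D 1, and without the others 2 (adjusted p up to 0.314, for RNU5B-1 without SCR B, edgeR with Benjamini-Hochberg adjustment). These genes have many near-identical copies, so which copy a read came from is uncertain.

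Other large rises came from scattered functions. MIR223HG, the host transcript of the microRNA miR-223, had 2.76, 3.06 and 2.20 CPM against 1.42, 1.5 and 1.31 CPM, a log2 difference of 0.92 (SE 0.17) without overlap. TTN, the giant spring protein of muscle, rose by 0.76 (SE 0.18), PKD1L1, a polycystin, by 0.71 (SE 0.16), and PHACTR1, a regulator of actin and protein phosphatase 1, by 0.61 (SE 0.15). STMN3, which destabilises microtubules, rose by 0.59 (SE 0.14) and TMEM255A, a membrane protein, by 0.67 (SE 0.16). C4orf48 (0.58) and the antisense transcript BCAR3-AS1 (0.61) complete the genes with products of their own.

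The pseudogenes BTF3P3 (1.07), RPS11P5 (0.96) and SUB1P1 (0.70) belong to 12 rises and 3 falls among 2452 pseudogenes, and reads of their parent genes may be placed on them. Of the 20 largest rises with an average log2 CPM of 1 or more, 4 kept the call in every fit that left out 1 library. Leaving out SCR D kept 17, leaving out gN1E D kept 14, leaving out gN1E A or B kept 11, and leaving out SCR A or SCR B kept 8 and 6. The highest adjusted p was 0.263 (BCAR3-AS1 without SCR B, edgeR with Benjamini-Hochberg adjustment).

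Lists of stress, death and growth genes held single calls or pairs. Of 27 p53 targets 2 rose, CDKN1A (0.25, SE 0.05), the inhibitor that halts the cell cycle, and FDXR (0.39, SE 0.07), a mitochondrial reductase, and 21 values were positive. With an unadjusted p under 0.05 there were 6 higher and 0 lower, and 10 of the 27 had all SCR libraries above all gN1E libraries, against 8.93% of all genes. Both held without SCR D or gN1E B, 0 without SCR B and 1 without each of the others (adjusted p up to 0.125, for CDKN1A without SCR A, edgeR with Benjamini-Hochberg adjustment). In the BCL2 family of 15 genes, BMF rose by 0.25 (SE 0.06) and BCL2L11, which encodes BIM, fell by 0.30 (SE 0.06), both of them triggers of apoptosis. BCL2L11 had 40.3, 37.0 and 36.4 CPM against 45.4, 45.8 and 48.3 CPM, lower in each SCR library. Both held without SCR D or gN1E D, 0 without SCR B and 1 without each of the others (adjusted p up to 0.204, for BMF without SCR B, edgeR with Benjamini-Hochberg adjustment).

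Calls in 5 further lists were single or paired. PPP1R15A, which restarts translation after stress, rose by 0.24 (SE 0.06), and STC2, a secreted stress hormone, fell by 0.23 (SE 0.05), of 23 integrated stress and amino acid genes. Of these stress genes 19 values were positive, with 5 higher and 2 lower at an unadjusted p under 0.05 in edgeR. MVD, an enzyme of sterol synthesis, rose by 0.24 (SE 0.06), the 1 call of 23 cholesterol genes, and SLC2A1, the glucose transporter GLUT1, fell by 0.22 (SE 0.05), the 1 call of 30 hypoxia and glycolysis genes. Of those 30, 19 values were positive, with 3 higher and 6 lower at an unadjusted p under 0.05 in edgeR. HMMR, a spindle and hyaluronan protein, rose by 0.25 (SE 0.05), the 1 call of 54 mitosis genes, of which 46 values were positive with a median of 0.07. Of the 54, 12 were higher and 1 lower at an unadjusted p under 0.05, and 14 had all SCR libraries above all gN1E libraries. The histone gene H2AC20, near-identical to other copies, rose by 0.32 (SE 0.06), the 1 call of 50 replication histones.

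Each of these 6 calls was lost without SCR B, and some without other libraries too. PPP1R15A reached an adjusted p of 0.296 there, MVD 0.272 and HMMR 0.0910, while SLC2A1 reached 0.167 without gN1E B and H2AC20 0.0933 without SCR A (edgeR with Benjamini-Hochberg adjustment).

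Machinery genes gave few calls. In edgeR 0 of 48 DNA replication genes were called, with a median of -0.06 and 10 positive values. At an unadjusted p under 0.05 in edgeR there were 1 higher and 10 lower, against 6.69% and 6.34% of all genes. All SCR libraries lay below all gN1E libraries for 12 of the 48 and above them for 1. By limma-voom 0 were called, and by DESeq2 2, both lower. Of 31 proteasome genes 0 were called by any of the 3 tools, 28 values were positive and 6 were higher and 0 lower at an unadjusted p under 0.05, where 13% of all genes lay. The unfolded protein response (24 genes), paraspeckle proteins (24) and ribosomal proteins (79) also gave 0 calls by the 3 tools, with medians of 0.03, 0.01 and 0.04. At an unadjusted p under 0.05 they held 1 higher and 1 lower, 1 higher, and 3 higher genes in edgeR. For 75 nuclear genes of the respiratory chain the median was 0.03 with 0 calls in edgeR and limma-voom, 1 rise in DESeq2 and 3 higher at an unadjusted p under 0.05.

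The mitochondrial genome had the highest median of the lists, 0.41, yet 0 of its 15 genes were called in edgeR. MT-ND4, a subunit of complex I, had 2167, 3143 and 6384 CPM against 2102, 3882 and 2733 CPM. The groups overlapped, and SCR D held the highest value. The high median rests on that library: without SCR D it was -0.09, while the other fits gave 0.25 to 0.64. At an unadjusted p under 0.05 there was 1 higher gene, with 1 rise in limma-voom and 0 in DESeq2.

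**Figure D3:**
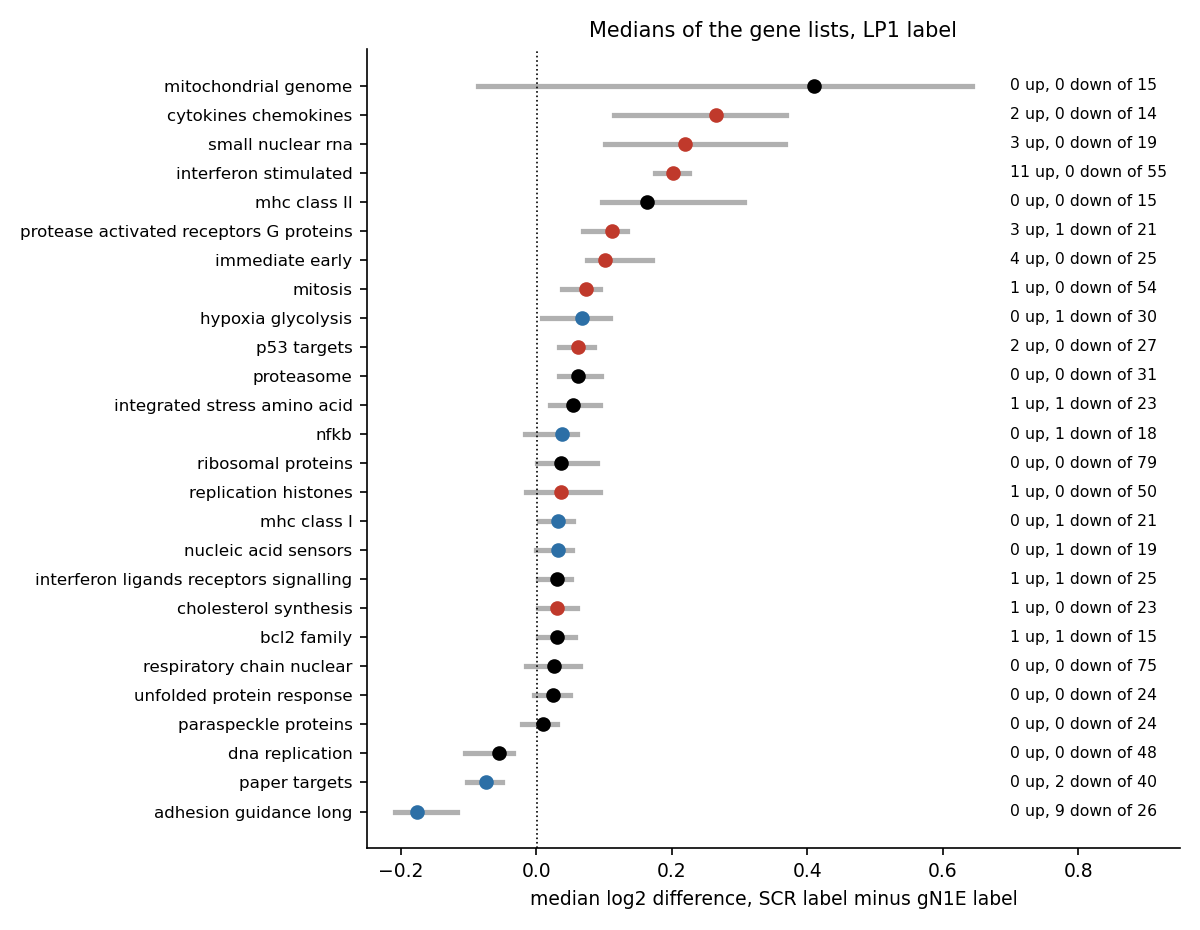
Median log2 difference (SCR label minus gN1E label) of each gene list; the grey bar spans the medians over all settings and left-out libraries, red and blue points mark lists with more rises or more falls, and the dotted line is the median of all genes tested, 0.00122. The interferon-stimulated list lies at 0.20 with a narrow range and 11 rises, and the adhesion and guidance list lies lowest at -0.18 with 9 falls.

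Several of the largest falls were long genes. A list of adhesion, scaffold and guidance genes of very long span, which also holds long genes of other roles such as vesicle transport, had 26 genes tested, of which 9 fell and 0 rose in edgeR. Its median was -0.18, and 8 of the 26 values were positive. Like the other lists, it was chosen with earlier results of these data known. Its counts thus describe these members and do not test the group. MAGI1, a scaffold of tight junctions, had 11.7, 15.4 and 15.2 CPM against 28.3, 28.2 and 30.8 CPM. Every SCR library was far under every gN1E library, and it fell by 1.05 (SE 0.09). PTPRG, a receptor tyrosine phosphatase, had 140, 164 and 167 CPM against 300, 312 and 319 CPM, with an adjusted p of 1.51e-08 in edgeR with Benjamini-Hochberg adjustment. It fell by 0.98 (SE 0.06), with no overlap. DCC, the netrin receptor, had 28.6, 29.2 and 34.3 CPM against 52.6, 54.0 and 55.7 CPM, a fall of 0.82 (SE 0.06) seen in every SCR library. EXOC4, of the exocyst that docks vesicles, fell by 0.63 (SE 0.06), and MYRIP, which links vesicles to myosin, by 0.87 (SE 0.13). These 5 calls held with each library left out. At an unadjusted p under 0.05, 11 of the 26 were lower and 0 higher in edgeR, limma-voom called 8 falls and 0 rises, and DESeq2 10 falls and 0 rises.

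Further falls among the 10 largest with an average log2 CPM of 1 or more were COLQ (-0.79, SE 0.13), the collagen tail of acetylcholinesterase, SDK1 (-0.73, SE 0.18), an adhesion protein of synapses, SLC6A5 (-0.72, SE 0.08), a glycine transporter, and RAD51B (-0.71, SE 0.12), which helps repair DNA breaks. SLC6A5 had 7.91, 8.59 and 9.02 CPM against 13.5, 14.2 and 14.3 CPM, lower in every SCR library. Of the 10, NEAT1 included, 8 kept the call with each library left out, and SDK1 reached an adjusted p of 0.186 without gN1E D (edgeR with Benjamini-Hochberg adjustment). 10 held without SCR D, 9 without SCR A or gN1E A and 8 without SCR B, gN1E B or gN1E D. Of the study's 40 targets, which it chose partly on AMO1 cells with NEAT1 lowered, 2 fell and 0 rose in edgeR, UBAP2L (-0.50, SE 0.05) and CLMN (-0.42, SE 0.06). The median of the 40 was -0.07. At an unadjusted p under 0.05 there were 11 lower and 1 higher, with 3 falls in limma-voom and 5 in DESeq2.

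Rises and falls differed in the span of the gene on the genome. The median span of the 146 protein-coding rises was 19.9 kb and that of the 126 protein-coding falls 87.4 kb, against 33.8 kb over all 13793 tested. Over 300 kb lay 8 of the rises (5.48%), 34 of the falls (27%) and 599 of all (4.34%). Among protein-coding genes with a mean of at least 1 CPM, the median log2 difference went from 0.04 under 10 kb to -0.05 over 300 kb, a small slope beside the calls. Whether span itself matters for these differences was not tested.

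**Figure D4:**
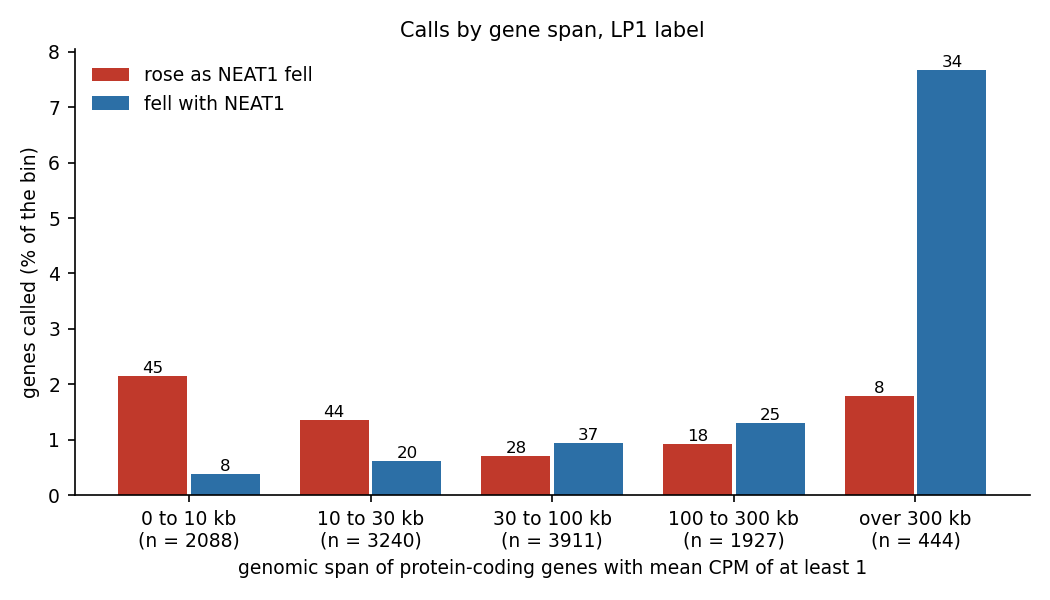
Share of protein-coding genes with a mean of at least 1 CPM called in each bin of genomic span, in percent of the genes of that bin; red bars are rises where NEAT1 was lower, blue bars are falls, and the number on a bar is its count of genes. Falls make up 7.66% of the 444 genes over 300 kb at that level (599 at any level) and 0.383% of the 2088 genes under 10 kb, while rises make up 2.16% of the shortest bin, 1.8% of the longest and 0.716% to 1.36% of those between.

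Set against the lines labelled AMO1 and H929, each with its own 3 against 3 libraries, the response was called as different at few genes. AMO1 and H929 stand here for the labels, and since the tables also exchange the names H929 and LP1, the doubt over which line was sequenced holds for the H929 label too. In a joint edgeR fit of the 18 libraries, 196 of 26436 genes (0.741%) had a response that differed from that under the AMO1 label and 231 (0.874%) one that differed from that under the H929 label. Of the 180 rises 17 differed from AMO1 and 16 from H929, all of them higher under the LP1 label. Since these genes were chosen for rising in the same libraries, that direction was largely set by the choice. Of the 152 falls 36 and 43 differed, 11 and 10 of them lower under the LP1 label and the rest less lowered there. Scaled by library size only, 8 and 3 of the rises differed. Of the study's 40 targets 39 fell in AMO1 and 33 in H929, and 19 and 16 had a response that differed from that under the LP1 label, with medians of -0.34, -0.28 and -0.05 in AMO1, H929 and LP1. The study chose them for falling in AMO1, so their fall there and the difference from AMO1 were largely set by that choice. For the 26 long adhesion, scaffold and guidance genes the medians were -0.62, -0.72 and -0.15, and 4 and 5 of them differed. That list too was chosen with earlier results of these data known, so its falls may be set in part by the choice.

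BTN2A2 rose by 0.37 in this fit under the LP1 label, against -0.06 in AMO1 and 0.02 in H929, and it differed from both (adjusted p 0.000407 and 0.00425, edgeR with Benjamini-Hochberg adjustment). TXNIP had a response of 0.38 under the LP1 label, -0.22 in AMO1 and 0.22 in H929 and differed from AMO1. CD28, KLF6 and PHACTR1 also differed from AMO1, and CDKN1A and STMN3 from H929. BCL2L11 and NLRC5, which fell here, had positive responses in both other lines and differed from both. EXOC4, PTPRG and CLMN fell in each line and less under the LP1 label, where the response of EXOC4 was -0.60 against -1.58 in AMO1 and -1.64 in H929.

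In edgeR no interferon-stimulated gene was called as differing between the lines, which does not show that the responses are alike. In the joint fit 0 of the 55 differed from AMO1 or from H929 in edgeR, with 8 and 11 at an unadjusted p under 0.05, where 10.7% and 10.1% of all genes lay, and 1 and 0 in limma-voom. The median response of the list was 0.226 under the LP1 label, 0.111 in AMO1 and 0.155 in H929, with 10, 1 and 8 rises and 1 fall, in H929. XAF1 had responses of 1.59 in AMO1, 1.45 in H929 and 1.415 under the LP1 label. NEAT1 itself had responses of -2.65 in AMO1, -2.75 in H929 and -2.115 under the LP1 label, and no difference was called (adjusted p 0.278 and 0.197, edgeR with Benjamini-Hochberg adjustment).

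**Figure D5:**
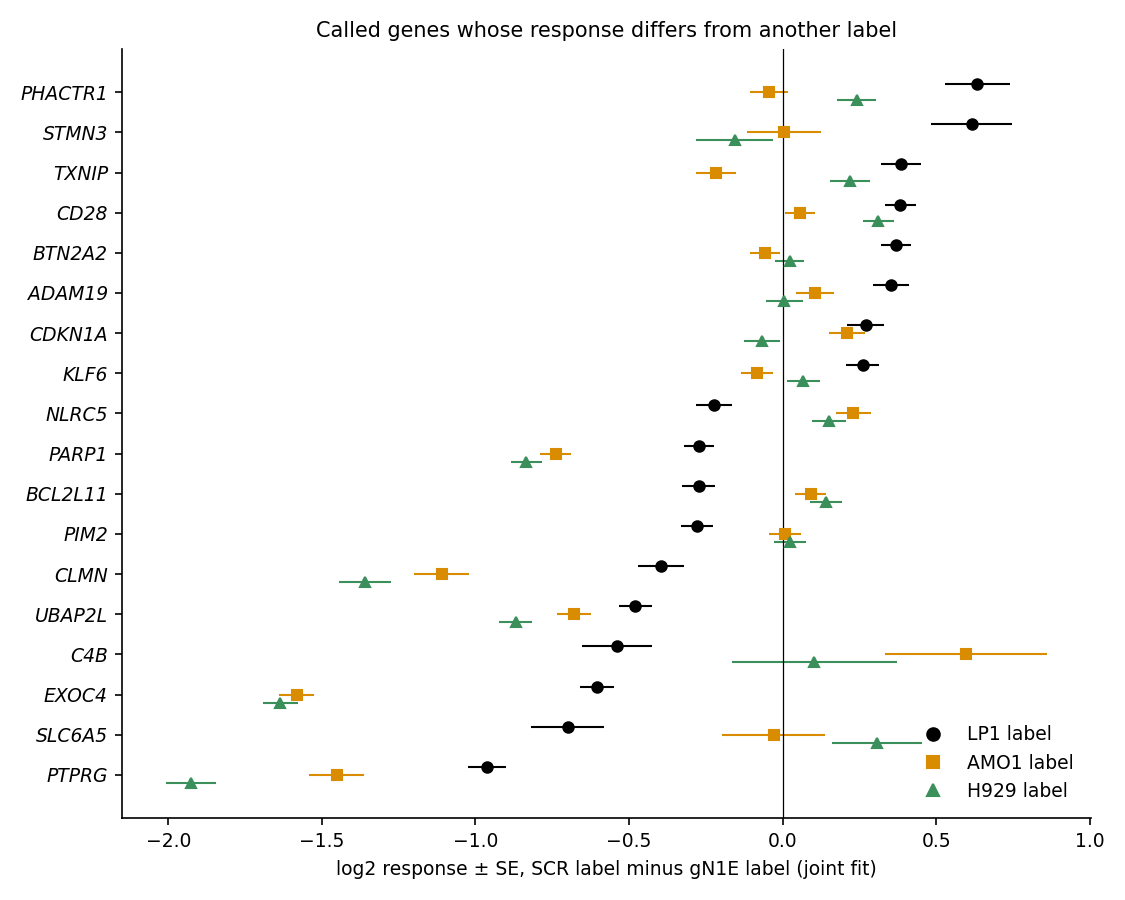
Log2 response (SCR label minus gN1E label) with its standard error in the joint fit for 18 named genes that were called under the LP1 label and whose response differs from that of another line; black circles are the LP1 label, orange squares AMO1 and green triangles H929. The rises PHACTR1, STMN3, TXNIP, CD28 and BTN2A2 lie right of 0 under the LP1 label, and EXOC4, PTPRG and CLMN lie nearer to 0 there than in the other lines.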

How the data were processed

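Stranded total RNA of 18 libraries was sequenced. The authors aligned the reads to hg38 with STAR 2.7.10a and counted them by GENCODE 43 with featureCounts 1.6.4. The deposited values are raw counts of 62703 genes, of which 62639 identifiers matched a symbol. Libraries were grouped by their labels. A gene was tested when 1 or more of the 6 libraries held 10 reads of it, by edgeR 4.0.16 (TMM, quasi-likelihood F test, R 4.3.3) at a Benjamini-Hochberg adjusted p under 0.05, two-sided. Levels are CPM with TMM factors. Responses of the 3 lines were compared in 1 joint edgeR fit of the 18 libraries. DESeq2 1.42.0, limma-voom 3.58.1, other scaling and filters, a replicate block and each left-out library were tried as alternatives. Replicate letters did not pair the libraries: the correlation of deviations was 0.203 for A, -0.00887 for B and -0.0767 for D, while SCR B with gN1E D gave 0.181 and SCR D with gN1E B 0.114. Named genes are the 20 largest rises and 10 largest falls whose average log2 CPM reached 1, the 10 rises with the smallest p, and at most 5 called genes per list. Members and lists were chosen with earlier results of these data known. Some items the rule names are not reported here. The fit was tested on simulated data, and the outcome is not given here.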

Additional observations from a re-analysis of the deposited data

Results flagged for a closer look

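For 18 genes called under the LP1 label and 3 more that are named for other reasons, the interaction term of the joint edgeR fit of the 18 libraries differed from 0, and the values below are the response under the LP1 label minus the response in the other line.

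Against AMO1 the difference was positive for EXOC4 (0.979), CLMN (0.713), PHACTR1 (0.678), TXNIP (0.602), PTPRG (0.49), PARP1 (0.466), BTN2A2 (0.426), KLF6 (0.344) and CD28 (0.326). It was negative for C4B (-1.14), NLRC5 (-0.454), BCL2L11 (-0.365) and POU2AF1 (-0.25). POU2AF1, a coactivator of antibody genes in B cells, was not called under the LP1 label.

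Against H929 it was positive for EXOC4 (1.03), CLMN (0.964), PTPRG (0.962), STMN3 (0.772), PARP1 (0.562), UBAP2L (0.39), ADAM19 (0.347), BTN2A2 (0.346), CDKN1A (0.337) and HNRNPK (0.302). It was negative for SLC6A5 (-1.01), BCL2L11 (-0.415), NLRC5 (-0.374), PIM2 (-0.304) and CD38 (-0.268). HNRNPK, an RNA-binding protein of paraspeckles, and CD38, a surface enzyme of plasma cells, were not called under the LP1 label. What lies behind these differences was not tested.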

How the results depend on the processing

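The number of rises was 288 in DESeq2, 444 with no filter beyond 1 read in 1 library, and 55 at an adjusted p under 0.1 with at least a 1.5-fold difference. It ran from 34 to 491 with 1 library left out. The number of falls was 229 when scaled by library size only, 256 with no filter beyond 1 read in 1 library and 47 at an adjusted p under 0.1 with at least a 1.5-fold difference, and it ran from 53 to 289 with 1 library left out. The cause was not tested.

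Rises among interferon-stimulated genes numbered 5 at an adjusted p under 0.1 with at least a 1.5-fold difference, and from 3 to 14 with 1 library left out. The log2 difference of NEAT1 ran from -2.25 to -2.003 with 1 library left out, and its adjusted p in edgeR with Benjamini-Hochberg adjustment rose to 0.176 when SCR B was left out, and to 0.111, 0.0886 and 0.0578 when gN1E A, B or D was. The cause was not tested.

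With a replicate block there were 132 rises and 111 falls, and 10 interferon-stimulated genes rose. With a replicate block within each line, 361 genes differed from H929. The cause was not tested.

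Of 78 named genes followed over the alternatives (77 in DESeq2), MALAT1 being 1 that was not called, 0 reversed. The call was lost for 8 when scaled by library size only, 17 in limma-voom, 3 with the stricter filter, 19 with the replicate block and 27 in the joint fit. Leaving out SCR A, B or D lost it for 30, 41 and 5 genes, and leaving out gN1E A, B or D for 25, 27 and 23.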

Other observations

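The genes of this part were chosen after their values were seen. CASP4, the caspase that senses bacterial lipopolysaccharide inside the cell, had 18.5, 18.1 and 18.3 CPM in SCR A, B and D and 12.3, 14.3 and 14 CPM in gN1E A, B and D. The SCR libraries were the higher ones without overlap, and the log2 difference was 0.44 (SE 0.08). TLR4, the receptor that senses lipopolysaccharide at the cell surface, had 20.8, 19.3 and 19.9 CPM against 15.2, 15.3 and 15 CPM. It was higher in each SCR library too, with a log2 difference of 0.40 (SE 0.07). ADAM19, a protease that sheds surface proteins, rose by 0.33 (SE 0.05).

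RO60, the protein that binds Y RNAs such as RNY1, had 70.8, 69.6 and 77.3 CPM against 99.4, 104 and 90.6 CPM. It was lower in every SCR library and fell by 0.43 (SE 0.06), while RNY1 rose by 0.54 (SE 0.08). PARP1, which marks DNA breaks with ADP-ribose, fell by 0.29 (SE 0.05), and PIM2, a survival kinase of plasma cells, fell by 0.30 (SE 0.05). C4A and C4B, complement genes so alike that reads cannot be placed between them with certainty, fell by 0.57 (SE 0.08) and 0.56 (SE 0.09). All 8 calls held with each library left out, at an adjusted p of up to 0.0392 in edgeR with Benjamini-Hochberg adjustment.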
